A study of Mus musculus with 6 samples.

Results

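The genes described here encode 45 proteins of the large (60S) ribosomal subunit, out of 53465 genes in a deposited table of ribosome-protected fragment counts. They are the rows whose Ensembl identifiers carry 45 listed Rpl and Rplp symbols in GENCODE M21, and each symbol matched 1 row. Ribosome profiling counts the short stretches of RNA that ribosomes shield from nuclease, so a count joins the amount of an mRNA with the density of ribosomes on it. The cells were ID8, a line from mouse ovarian surface epithelium that serves as a model of ovarian cancer. The study asked whether NAT10, the enzyme that writes N4-acetylcytidine on RNA, affects translation. Of 6 libraries, 3 were labelled KO and 3 WT. The series' design text describes sgNat10 cells, depleted of NAT10 with a guide RNA, and sgNC cells, which carry a control guide. All 6 were treated with cycloheximide at 100 µg/mL for 2 minutes before lysis. The labels do not say whether the sgNat10 cells are 1 clone or a pool, nor whether replicates were separate cultures, so p-values reflect library-to-library spread, which may be technical.

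The large subunit holds the peptidyl transferase centre, where peptide bonds form, and the tunnel through which the new chain leaves. Its proteins are made in the cytoplasm, imported into the nucleolus and assembled onto ribosomal RNA in near equal numbers, since almost all of them occur once per subunit. The stalk is the exception, with several copies of the acidic proteins P1 and P2. Their mRNAs are among the most translated of growing cells. Most begin with a terminal oligopyrimidine tract, a C followed by a run of C and T that lets growth signalling through mTORC1 set their translation. In mammals these genes have left many processed pseudogenes, copies of the mRNA pasted into the genome, and short fragments of the parent and of such copies can be identical.

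Total gene counts were 2541273, 2234305 and 3126208 in the KO-labelled libraries and 1687466, 2148715 and 1811225 in the WT-labelled ones. The modal count of a gene, the most frequent count beyond the lowest values, was 42, 46 and 60 in the KO-labelled libraries and 15, 21 and 39 in the WT-labelled ones. Counts divided by it are called molecule equivalents below, so that a gene at the modal count has 1. Nat10 had 123, 57.0 and 138 CPM (counts scaled to TMM-adjusted library sizes) in the KO-labelled libraries, against 102, 64.0 and 169 CPM in the WT-labelled ones. These ranges overlapped, with a log2 fold change of -0.074 ± 0.48 (SE, n = 3 libraries a group, edgeR adjusted p = 1.0). No source used here gives the guide's site, so this count does not check the labels, and the libraries are named by their labels throughout. Of 8 epithelial and mesothelial markers, Krt8, Krt18, Krt19, Msln, Wt1 and Upk3b were counted in all 6 libraries. Krt8 had only 1 count in KO-labelled library 1, and Krt7 and Lrrn4 had at most 12 counts in any library. Of the 6 that were tested, 3 passed the test, Krt18 and Krt19 lower and Msln higher in KO-labelled libraries. Of the 5 leukocyte and 3 endothelial markers, only Cd68 passed 2 counts in a library, with 10 and 29 in WT-labelled libraries 1 and 2.

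How far the fragments can be assigned to these genes is seen in their sequences. Each coding sequence was cut into all its windows of 28 bases, the length of a short protected fragment, and each window was sought on both strands of GRCm38 outside its own gene. The first 2 sequences below show both ends of the range, with capitals for bases inside a window found elsewhere. Rpl41 (chr10:128548114-128549305, minus strand), the shortest coding sequence of the set, is shown whole, and every base is a capital. Of Rpl8 (chr15:76904078-76906314, plus strand), the member with the fewest shared windows, bases 601 to 690 are shown, of which 58 are capitals.
Rpl41: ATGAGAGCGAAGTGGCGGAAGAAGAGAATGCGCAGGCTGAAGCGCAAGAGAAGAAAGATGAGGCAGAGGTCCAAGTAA
Rpl8: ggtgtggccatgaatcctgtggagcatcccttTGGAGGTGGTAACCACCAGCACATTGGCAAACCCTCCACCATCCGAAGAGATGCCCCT

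The members share nearly all of their coding windows with other places in the genome. In 21 of 45 members every window was found elsewhere, in 35 at least 90%, and the median was 99.5%. The lowest values were 11.5% for Rpl8, 43.4% for Rpl4 and 61.1% for Rpl22. The 33 small subunit protein genes had a median of 96.4%, and 20 assembly factors of the 60S subunit had 0.244%. No source used here says how fragments with several matches were counted.

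The counts themselves lay almost wholly in the rows of the parent genes. By at least 10 shared windows, 944 pseudogene rows of the table could be paired with a member, and 180 of them held a count. These rows summed to 706 counts over 6 libraries, against 144601 in the member rows. For the 21 members without a window of their own, the sums were 378 in the pseudogene rows and 50396 in the member rows. Rpl7a had the most paired rows (134), with 41 counts in them, or 0.879% of its family counts. Pseudogene rows held 0.419, 0.548 and 0.342% of the family counts in the KO-labelled libraries and 0.515, 0.548 and 0.668% in the WT-labelled ones, which overlap (difference of means -0.141 percentage points, exact permutation p = 0.3, smallest possible 0.1). With pseudogene rows paired by symbol instead, the difference was -0.0030 percentage points (exact permutation p = 1.0). The largest shares belonged to Rpl24, with all of 16 family counts in pseudogene rows, Rplp1 with 6.61% and Rpl18 with 3.83%.

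Rpl36a, whose product sits near the exit site of transfer RNA, has in Rpl36al an expressed paralog in mammals. The first 90 coding bases of both are shown to see whether fragments of Rpl36a could be read as either gene. Capitals mark the bases that differ, 14 here and 39 over the 321 bases of the coding sequence (87.9% identity). Within the bases shown, every window of the length sought above holds a differing base, so none is identical between Rpl36a and Rpl36al. The rest of the coding sequence was not compared window by window. Rpl36a lies at chrX:134585654-134588062 on the plus strand and Rpl36al at chr12:69182731-69184083 on the minus strand.
Rpl36a: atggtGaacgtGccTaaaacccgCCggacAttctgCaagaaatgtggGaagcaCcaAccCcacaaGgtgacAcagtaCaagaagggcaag
Rpl36al: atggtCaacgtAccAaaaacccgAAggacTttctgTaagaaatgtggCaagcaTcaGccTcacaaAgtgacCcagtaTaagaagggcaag
The row of Rpl36al held 0 counts in all 6 libraries. All of its windows overlap same-strand exons of another annotated gene, Gm49383, whose row was also at 0.

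The same overlap marks 2 members whose rows were empty or nearly so. Rpl24, a protein that bridges to the small subunit, had 0 counts in all 6 libraries. A 0 allows up to 3 counts by counting error alone, and more if PCR copies of a fragment are each counted. Of the windows of Rpl24, 87.9% overlap exons of Gm28037, also at 0. Rpl13a, which in human cells also leaves the ribosome to silence inflammatory mRNAs, had 33, 0 and 0 counts in the KO-labelled libraries and 0 in each WT-labelled one. All its windows overlap Gm45713, which had 0 counts. Outside the set, Rps10 of the small subunit, overlapped over 96.8% of its windows, had 142 to 503 counts in the KO-labelled libraries and 74 to 179 in the WT-labelled ones. Whether overlapping annotation removed these counts was not tested. Rpl35a, mutated in some human cases of Diamond-Blackfan anaemia, has no such overlap and had 0, 0 and 2 counts in the KO-labelled libraries and 60, 40 and 0 in the WT-labelled ones, where 1 WT-labelled library lies within the range of the KO-labelled ones. These 3 members failed the count filter, and no fold is given for them.

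**Figure D1:**
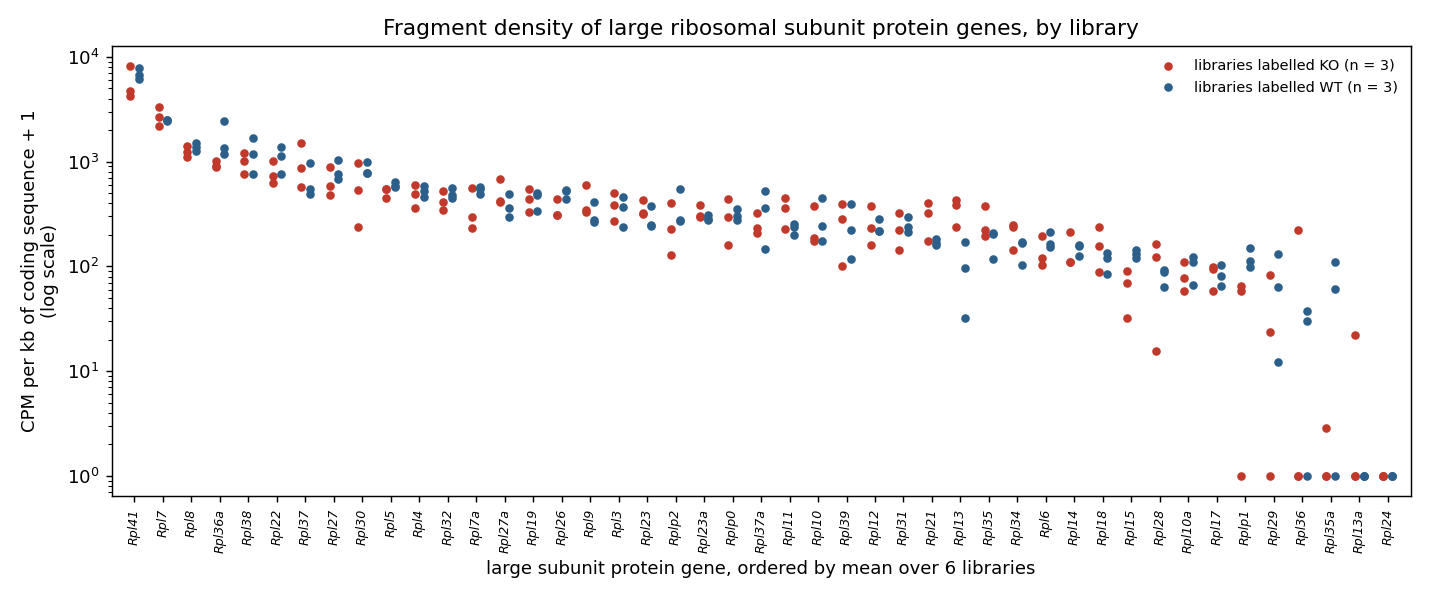
Fragment density of each member in every library, in CPM per kilobase of coding sequence plus 1 on a log scale, with libraries labelled KO (red, left) and WT (blue, right), ordered by the mean over 6 libraries. Rpl41, Rpl7 and Rpl8 lead in the mean, and Rpl35a, Rpl13a and Rpl24 end the order at or near 0.

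Although the proteins enter the ribosome in near equal numbers, the density of fragments counted in their rows differed widely. How far these rows hold fragments of other copies is not known. On CPM per kilobase of coding sequence, averaged over 6 libraries, the 42 members that passed the count filter had a median of 305, with quartiles of 188 and 490 (a 2.60-fold range). The highest, Rpl41, was 133 times the lowest, Rpl36, whose row was at 0 in KO-labelled libraries 2 and 3 and WT-labelled library 2. The order was much alike in both groups, with Pearson's r = 0.91 and Spearman's rho = 0.91 between the log2 densities of the 42 members, which share their libraries. Over the 44 members with a count, log2 density had r = -0.037 with coding length and r = -0.10 with the share of windows found elsewhere. The second value rests on few genes, since 35 of 45 members had at least 90% of windows elsewhere, so it cannot show whether sharing and density are related. The lowest shares were those of Rpl8, Rpl4, Rpl22 and Rpl13a, at 1307, 499, 943 and 3.51 CPM per kilobase.

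Rpl41 had the highest density, 5670 ± 2118 CPM per kilobase in the KO-labelled libraries and 6929 ± 870 in the WT-labelled ones (SD, n = 3 each). Its coding sequence of 78 bases is the shortest here, and a fragment of 28 bases spans much of it. Before scaling to length Rpl41 had 368, 632 and 327 CPM in the KO-labelled libraries, against 480, 527 and 614 CPM in the WT-labelled ones, and KO-labelled library 2 was the highest of all. The log2 fold change was -0.29 ± 0.26 (SE, adjusted p = 1.0). Rpl7, an RNA-binding protein of the subunit, was second by density and first by counts. It had 2183, 1772 and 2678 CPM in the KO-labelled libraries, against 2017, 1990 and 2017 CPM in the WT-labelled ones. The WT-labelled values lay within the wider range of the KO-labelled ones, and the log2 fold change of 0.14 ± 0.17 (adjusted p = 1.0) had the smallest standard error of the set. This 1 gene held 17.5 to 24.3% of all member counts in a library.

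Rpl8, which lies next to the peptidyl transferase centre, followed by density and is the member whose fragments can best be told from copies. It had 854, 948 and 1086 CPM in the KO-labelled libraries, against 1155, 1055 and 972 CPM in the WT-labelled ones. KO-labelled library 3 was above 2 of the WT-labelled ones, so the groups overlapped, and the log2 fold change was -0.14 ± 0.18 (SE, 95% interval -0.52 to 0.24, adjusted p = 1.0). The next members by density were Rpl36a, Rpl38, Rpl22, Rpl37, Rpl27, Rpl30 and Rpl5. At the low end of those tested were Rpl36, Rpl29 and Rplp1, each of which was at 0 in at least 1 library.

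No large subunit gene passed the test between KO-labelled and WT-labelled libraries. Of 42 tested members, 0 had an adjusted p under 0.05 in edgeR's quasi-likelihood test, where 0.402% of 8200 tested genes were called. At an unadjusted p under 0.05 there were 2 members, Rpl13 and Rpl36a, against 6.49% of all tested genes. Estimates were positive for 19 members and negative for 23, where 49% of all tested genes were positive. The members' median was -0.086 with quartiles of -0.34 and 0.31, and the median over all tested genes was -0.016 with quartiles of -0.56 and 0.54. Among 1566 tested genes of like level (82.2 to 283 CPM, the quartiles of the members), the median was -0.024 and the quartiles were -0.37 and 0.34. Without WT-labelled library 3 the members' median was 0.025 and that of all tested genes -0.031.

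**Figure D2:**
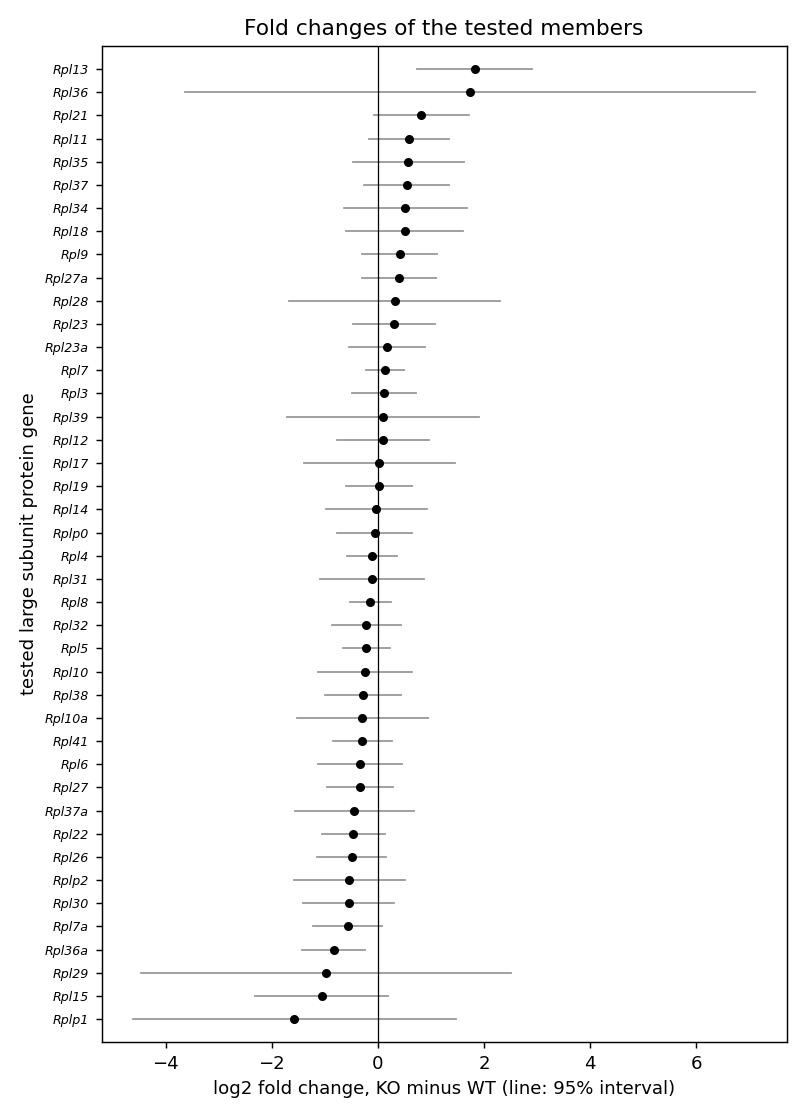
Log2 fold change, KO-labelled minus WT-labelled libraries, of the 42 tested members (points) with 95% intervals from edgeR's fit (lines), ordered from the highest at the top. The intervals of 40 members include 0, and those of Rpl36, Rpl29 and Rplp1 are the widest.

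The precision behind these estimates differed between members. Standard errors ran from 0.17 to 2.51, with a median of 0.37. The 95% interval lay within -1 and 1 for 14 members (Rplp0, Rpl3, Rpl4, Rpl5, Rpl7, Rpl8, Rpl12, Rpl14, Rpl19, Rpl23a, Rpl27, Rpl32, Rpl38 and Rpl41), so a change beyond 1 on the log2 scale lies outside their intervals. For the other 28 the interval reached past that size. In molecule equivalents, 21 of the 45 members averaged at least 10 and 8 averaged under 3, with a median of 9.63 and a highest value of 145 (Rpl7). The groups did not overlap in 5 tested members, where 14.9% of all tested genes and 18.5% of those of like level did not overlap. Of these 1 (Rpl13) was higher in KO-labelled libraries, against 6.94% of all tested genes, and 4 (Rplp1, Rpl5, Rpl15 and Rpl36a) were lower, against 7.93%.

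The stalk, which recruits the elongation factors, had 4 tested members with a median of -0.30, and 1 of them, Rpl12, had a positive estimate (0.093 ± 0.41, SE). Rplp0, the base of the stalk, had 418, 153 and 281 CPM in the KO-labelled libraries, against 266, 289 and 335 CPM in the WT-labelled ones. The KO-labelled values spanned the WT-labelled ones, and the log2 fold change was -0.062 ± 0.33 (SE, adjusted p = 1.0). Rplp1, the acidic protein P1, had 21.9, 0 and 19.5 CPM in the KO-labelled libraries, against 38.3, 34.0 and 51.5 CPM in the WT-labelled ones. All KO-labelled values were lower, on 56, 0 and 63 counts against 63, 68 and 89 in the WT-labelled libraries, and the log2 fold change was -1.57 ± 1.42 (adjusted p = 1.0). Rplp2, the acidic protein P2, had 44.5, 78.4 and 141 CPM in the KO-labelled libraries, against 96.1, 94.9 and 191 CPM in the WT-labelled ones. Library 3 was the highest of each group, the groups overlapped, and the log2 fold change was -0.53 ± 0.49 (adjusted p = 1.0).

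Rpl5 and Rpl11 bind the 5S ribosomal RNA together, and outside the ribosome this complex binds MDM2 and so stabilises p53. Rpl5 had 491, 485 and 400 CPM in the KO-labelled libraries, against 566, 507 and 527 CPM in the WT-labelled ones. The groups did not overlap, yet they were close, with a log2 fold change of -0.22 ± 0.21 (SE, adjusted p = 1.0). Rpl11 had 122, 239 and 192 CPM in the KO-labelled libraries, against 106, 136 and 128 CPM in the WT-labelled ones. KO-labelled library 1 lay within the WT-labelled range, and the log2 fold change was 0.58 ± 0.35 (adjusted p = 0.999). The 2 partners thus had estimates of opposite sign, neither past the test.

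The 4 members grouped under the catalytic centre and the transfer RNA sites, Rpl3, Rpl8, Rpl10 and Rpl10a, had estimates between -0.29 (Rpl10a, of the mobile arm at the exit site) and 0.11 (Rpl3, beside the peptidyl transferase centre). Rpl36a, near the exit site too, was not put in this group and is described below. Around the exit tunnel, 9 members were tested and 5 had positive estimates, with a median of 0.015. They ran from -0.49 ± 0.31 (SE) for Rpl26, at the tunnel's rim, to 0.57 ± 0.49 for Rpl35, part of the platform where chaperones and the signal recognition particle dock. Rpl4, which reaches into the tunnel, had -0.11 ± 0.22, and Rpl39, a small protein of the tunnel wall, had 0.099 ± 0.85. Rpl22, assigned to the same region and needed for T cell development in mice, had 282, 395 and 243 CPM in the KO-labelled libraries, against 537, 436 and 297 CPM in the WT-labelled ones. WT-labelled library 3 lay within the KO-labelled range, and the log2 fold change was -0.47 ± 0.28 (adjusted p = 0.981). Another 22 tested members were not placed in one of these groups, 11 with positive and 11 with negative estimates and a median of 0.055.

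Rpl13 (chr8:123102350-123105244, plus strand), variants of which cause a skeletal dysplasia in humans, had the lowest p of the members. It had 390, 635 and 796 counts in the KO-labelled libraries and 100, 218 and 34 in the WT-labelled ones. As levels these were 152, 272 and 247 CPM in the KO-labelled libraries, against 60.8, 109 and 19.7 CPM in the WT-labelled ones. All KO-labelled values were above all WT-labelled ones, and the lowest count, in WT-labelled library 3, was below that library's modal count of 39. The log2 fold change was 1.82 ± 0.51 (SE, 95% interval 0.73 to 2.91, adjusted p = 0.254). DESeq2 called it (adjusted p = 0.00497), with 2.89% of all tested genes, limma-voom did so (adjusted p = 0.0239) with 1.13%, and edgeR without a count filter did so (adjusted p = 0.00259) with 0.711% of 12794 genes. In those 3 settings it was the 1 member called. Its windows are all found elsewhere, and its 17 paired pseudogene rows held 5 counts in all.

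Among the other members with positive estimates, Rpl21 had 155, 192 and 83.8 CPM in the KO-labelled libraries, against 87.0, 80.0 and 76.9 CPM in the WT-labelled ones. KO-labelled library 3 lay within the WT-labelled range, and the log2 fold change was 0.82 ± 0.42 (SE, adjusted p = 0.858). Rpl37 had 167, 253 and 438 CPM in the KO-labelled libraries, against 285, 161 and 143 CPM in the WT-labelled ones. The groups overlapped, with a log2 fold change of 0.54 ± 0.37 (adjusted p = 1.0). Rpl18, with Rpl24 and Rplp1 among those with the largest shares of counts in pseudogene rows, had 87.4, 134 and 49.0 CPM in the KO-labelled libraries, against 76.0, 47.5 and 67.1 CPM in the WT-labelled ones. These overlapped as well, with a log2 fold change of 0.50 ± 0.52 (adjusted p = 1.0). Rpl36 had an estimate of 1.74 ± 2.51 that rested on 179 counts in KO-labelled library 1, with 0 in the other KO-labelled libraries and 19, 0 and 16 in the WT-labelled ones.

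Among members with negative estimates, Rpl36a had 284, 288 and 326 CPM in the KO-labelled libraries, against 437, 376 and 786 CPM in the WT-labelled ones. The groups did not overlap, and WT-labelled library 3 stood highest. The log2 fold change was -0.83 ± 0.28 (SE, 95% interval -1.42 to -0.24, adjusted p = 0.443), and no alternative setting called it. Rpl15, mutated in some human cases of Diamond-Blackfan anaemia, had 55.0, 19.3 and 41.9 CPM in the KO-labelled libraries, against 88.2, 80.5 and 72.9 CPM in the WT-labelled ones. All KO-labelled values were lower, on 45 to 141 counts, and the log2 fold change was -1.05 ± 0.59 (adjusted p = 0.938). Rpl7a, the member with the most paired pseudogene rows, had 445, 183 and 236 CPM in the KO-labelled libraries, against 435, 395 and 456 CPM in the WT-labelled ones. KO-labelled library 1 lay within the WT-labelled range, and the log2 fold change was -0.57 ± 0.30 (adjusted p = 0.882).

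The tract described above belongs at the start of the transcript. Shown are 30 bases, from 15 before to 15 after the annotated start (RefSeq, GRCm38.p6), of 4 of the members with low p, chosen to hold both directions of difference and starts with and without a run. Capitals mark a run of at least 7 letters that begins with C and goes on with C or T only, on the transcript's strand. The windows are chr8:123102335-123102364 (plus strand), chr14:18270972-18271001 (minus), chr2:26910792-26910821 (plus) and chrX:134585639-134585668 (plus).
Rpl13: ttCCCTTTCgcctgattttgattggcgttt
Rpl15: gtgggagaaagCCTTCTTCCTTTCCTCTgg
Rpl7a: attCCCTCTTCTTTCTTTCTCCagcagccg
Rpl36a: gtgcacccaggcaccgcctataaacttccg
The run was found in Rpl13, with a positive estimate, and in Rpl15 and Rpl7a, with negative ones, but not in these 30 bases of Rpl36a. In Rpl15 and Rpl7a it spans the annotated start, while in Rpl13 it lies wholly before it, outside the annotated transcript. Of the 34 members with a promoter entry, 18 had such a run (52.9%), as did 13 of 25 small subunit genes (52.0%) and 4421 of 27025 genes in all (16.4%). In these shares a gene with several annotated starts was counted if any of them had the run. The sequences shown are each from the first entry of the gene. A match describes the letters of this window only.

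Summed over members, the share of a library's counts differed between groups by less than the SD of either group. The 45 members held 1.07, 1.03 and 1.14% of all gene counts in the KO-labelled libraries and 1.04, 0.996 and 1.10% in the WT-labelled ones. The groups overlapped, with means of 1.08 ± 0.055% and 1.05 ± 0.052% (SD, n = 3 each, difference 0.033 percentage points, exact permutation p = 0.5). That difference was 0.0028 without KO-labelled library 3, 0.0078 without WT-labelled library 2, 0.056 without KO-labelled library 2 and 0.060 without WT-labelled library 3. Of protein-coding counts the members held 1.38, 1.32 and 1.43% in the KO-labelled libraries and 1.35, 1.36 and 1.53% in the WT-labelled ones, where the difference of -0.037 percentage points had the other sign (exact permutation p = 0.7). In molecule equivalents the sums were 645, 501 and 593 in the KO-labelled libraries and 1171, 1019 and 511 in the WT-labelled ones, highest in WT-labelled libraries 1 and 2. Raw member counts ran the other way, at 27098, 23032 and 35576 in the KO-labelled libraries and 17572, 21401 and 19922 in the WT-labelled ones, and whether a modal count stands for 1 molecule was not tested.

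**Figure D3:**
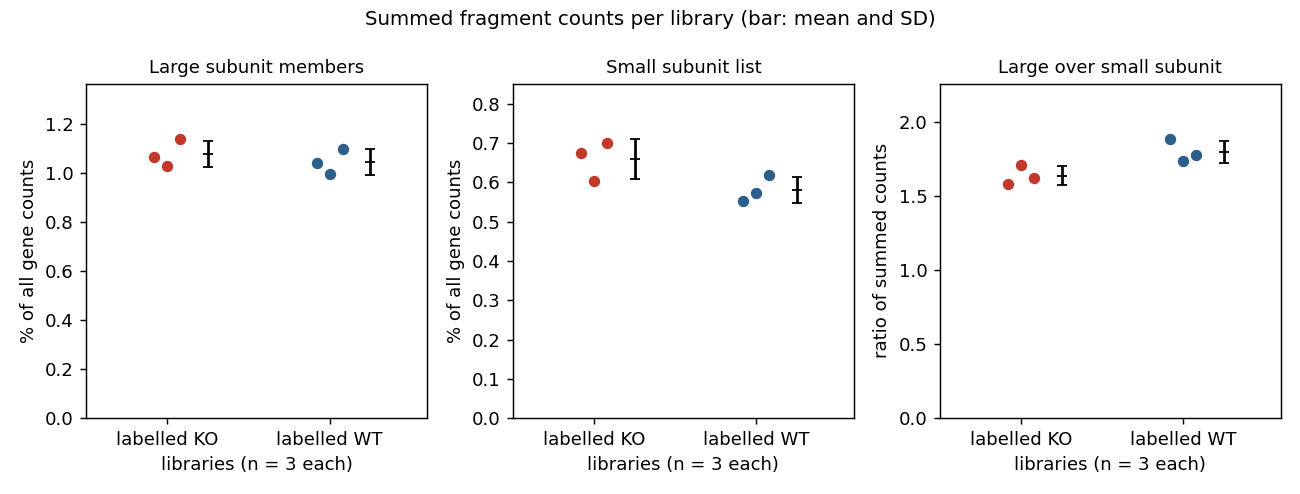
Share of all gene counts in the 45 large subunit members (left), in 33 small subunit genes (middle) and the ratio of the 2 sums (right), 1 point per library, with libraries labelled KO left of those labelled WT and bars for mean and SD (n = 3 each). The member share overlaps between groups, while the ratio is 1.58 to 1.71 in KO-labelled and 1.74 to 1.88 in WT-labelled libraries.

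As a ratio to the small subunit sum, the large subunit sum was lower in each KO-labelled library. Its share of all gene counts overlapped between groups, as given above. The ratio of large to small subunit counts was 1.58, 1.71 and 1.62 in the KO-labelled libraries and 1.88, 1.74 and 1.78 in the WT-labelled ones, without overlap. On the log2 scale the means were 0.71 ± 0.056 and 0.85 ± 0.060 (SD, n = 3 each), a difference of -0.14 with an exact permutation p of 0.1, the smallest that 3 against 3 libraries can give, so the design cannot reach 0.05. The 33 small subunit genes held 0.675, 0.604 and 0.701% of counts in the KO-labelled libraries and 0.553, 0.574 and 0.618% in the WT-labelled ones. These shares overlapped, with a difference of means of 0.078 percentage points (exact permutation p = 0.2). Of the small subunit genes, Rps23 had the lowest p, at 317 ± 16.4 CPM in KO-labelled and 120 ± 30.4 CPM in WT-labelled libraries (SD). Its log2 fold change was 1.40 ± 0.30 (SE, adjusted p = 0.0632). Rps25, next by p, went the other way, at 11.7 ± 9.78 CPM in KO-labelled and 86.1 ± 26.8 CPM in WT-labelled libraries (SD). The log2 fold change of Rps25 was -2.87 ± 0.89 (SE, adjusted p = 0.387). In alternatives chosen after the data were seen, the difference of the log2 ratio was -0.091 without Rps23 (exact permutation p = 0.2), -0.18 without Rpl7 (exact permutation p = 0.1) and -0.24 without Rpl7 and, in the small subunit sum, Rack1 (exact permutation p = 0.1).

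Other genes of the same pathway were described by their counts, beside 0.402% called and 49% positive among all tested genes, a share at which lists of this size would hold no call or few. Of 33 small subunit genes tested, 0 were called, 20 had positive estimates and the median was 0.19. Of 20 assembly and maturation factors of the 60S subunit, 0 were called, 10 were positive and the median was -0.039; Mdn1, an ATPase that strips assembly factors from the precursor, had the lowest p among them at 0.83 ± 0.27 (SE, adjusted p = 0.413). Of 18 listed RNAs with a terminal oligopyrimidine tract, 0 were called, 7 were positive and the median was -0.13. That list holds the noncoding Gas5 and Snhg1, and it shares Rack1 and Fau with the small subunit list. None of these lists was tested as a list against the members.

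**Figure D4:**
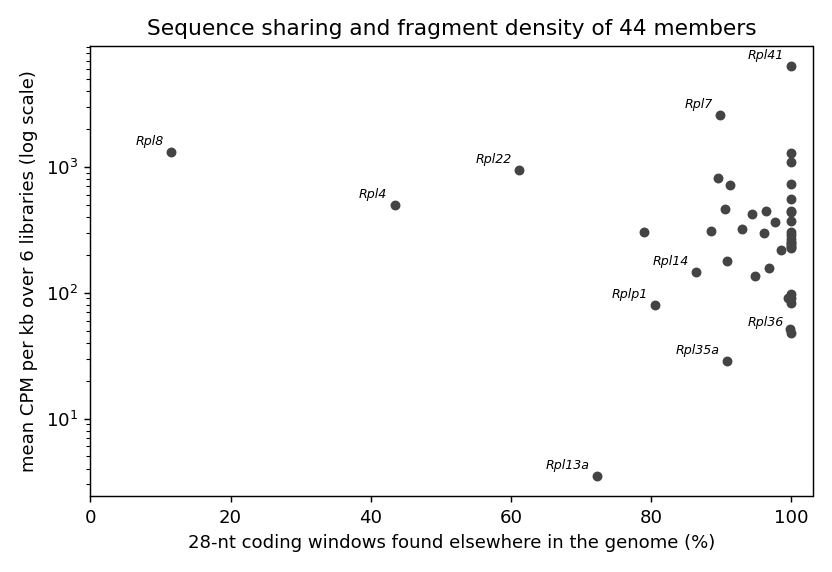
Share of a member's coding windows of 28 bases found elsewhere in the genome (x axis, %) and its mean fragment density over 6 libraries (y axis, CPM per kilobase of coding sequence, log scale), for the 44 members with a count. Most members lie at or near 100% over the full range of densities, and Rpl8 stands apart at 11.5%.

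The fold changes, like the densities, were set beside sequence sharing and coding length. Few members had much unique sequence, so a relation with sharing could not be judged. Over the 42 tested members the log2 fold change had r = 0.15 with the share of windows found elsewhere and r = 0.011 with coding length, given as descriptions over genes that share their libraries. Adding the counts of paired pseudogene rows to their parents left 0 members called and a median of -0.086.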

How the data were processed

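Ribosome-protected fragments of 6 ID8 libraries were analysed. Per the labels' protocols, RNase I digestion, a sucrose cushion and gel selection gave fragments, reads of 25 to 34 nt were kept, rRNA and tRNA reads were filtered out by Bowtie, and HISAT2 and Bowtie placed the remainder on GRCm38 and its transcriptome. The submitters' processing notes also name featureCounts and DESeq2, with no role. For annotation, strand, multiple matches and duplicates the setting is not stated in any source used here. The authors deposited raw counts per Ensembl gene, not normalized, of which 53360 of 53465 rows matched GENCODE M21.

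The test was edgeR's robust quasi-likelihood fit (edgeR 4.0.16, limma 3.58.1, R 4.3.3) over 8200 genes kept by filterByExpr, with TMM factors and Benjamini-Hochberg adjustment over all of them at 0.05. Errors are SE for log2 fold changes, with 95% intervals from the fit, and SD for levels. Sums per library were compared by exact two-sided permutation of library labels (20 assignments). Modal counts are the peak of the smoothed histogram between 8 and 150 counts (bandwidth 3). Python 3.11.15 served for tables (pandas 2.3.3), exact tests (scipy 1.17.1, with numpy 2.4.6) and plots (matplotlib 3.10.9). Total counts per library bound the precision, and no molecular identifiers are described, so PCR copies of a fragment may each be counted.

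The members and lists were chosen with earlier results of these data known. Members named in full were those with the 4 lowest p in each direction, the 3 highest and 3 lowest densities, the stalk and 5S proteins, the 3 largest pseudogene shares and those not tested. Role classes, the sequences shown, the window search and 3 versions of the subunit ratio were chosen after the data were seen. Alternatives were DESeq2 1.42.0, limma-voom, other scalings and filters, protein-coding genes alone, removal of mitochondrial and the 10 most abundant genes, molecule equivalents, pseudogene counts added to parents, a replicate block and leaving out each library.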

Additional observations from a re-analysis of the deposited data

How the results depend on the processing

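The main count of 33 called genes became 237 under DESeq2, 93 under limma-voom, 91 without a count filter and 110 with molecule equivalents, where 968 genes (19 members) were tested, and 6 to 29 when 1 library was left out. Members called went to 1 (Rpl13) under DESeq2, limma-voom and no count filter, and stayed at 0 in the other alternatives run. With molecule equivalents Rpl13 was not among the members tested. The members' median ran from -0.17 to 0.025 when 1 library was left out, with the positive value without WT-labelled library 3. The difference in the members' share of counts was -0.044 percentage points without mitochondrial and the 10 most abundant genes and -0.037 over protein-coding genes. The log2 fold change of Rplp0 was 0.039 with library totals, 0.083 with molecule equivalents, and between -0.44 and 0.24 when 1 library was left out (0.24 without KO-labelled library 2, 0.033 without WT-labelled library 3). That of Rpl7 was -0.026 without KO-labelled library 3 and 0.29 without KO-labelled library 2, the ends of its range when 1 library was left out. Leaving out 1 library moved these estimates by over 1.5 times: Rpl37 to 0.093 (KO-labelled 3) and 0.91 (WT-labelled 1), Rpl18 to 0.11 (KO-labelled 2) and 0.80 (KO-labelled 3), Rpl11 to 0.36 (KO-labelled 2), Rplp1 to -0.99 (KO-labelled 2), Rplp2 to -1.06 (KO-labelled 3) and -0.12 (WT-labelled 3), Rpl5 to -0.13 (KO-labelled 3), Rpl7a to -1.02 (KO-labelled 1) and -0.33 (KO-labelled 2), Rpl8 to -0.24 (KO-labelled 3) and -0.052 (KO-labelled 1), Rpl22 to -0.26 (WT-labelled 1), and Rpl41 to -0.63 (KO-labelled 2) and -0.12 (KO-labelled 3), where only the ends of each range are given. Rpl36a moved by over 1.5 times as well, to -0.44 without WT-labelled library 3. Apart from Rplp0 and Rpl7, the named members kept their sign in the alternatives that gave a value, Rpl13 between 1.39 and 2.47 (adjusted p 0.00259 to 0.585) and Rpl36a between -1.03 and -0.44 (adjusted p 0.0766 to 0.951). With library totals the median of all tested genes moved to 0.093 and that of members to 0.017. Libraries with the same replicate number did not deviate together (correlations -0.017, -0.0026 and -0.0067). With the replicate number as a block, 38 genes and 0 members were called, the members' median was -0.16 and Rpl13 had 2.04 (adjusted p = 0.0918). At this depth, 28 of 42 members have intervals that reach past a change of 1 on the log2 scale. The causes of these shifts were not tested.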
